A study of Arabidopsis thaliana with 4 samples.

Results

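Expansins were followed in 4 RNA-seq libraries from dark-grown Arabidopsis thaliana seedlings, harvested as hypocotyls (the stem below the seed leaves) at an age of 4 days. They were taken as the loci whose deposited description holds the word expansin, which gave 26 of the 23695 loci with any read. The alpha-expansin EXPA3 (AT2G37640) is listed under another description and is not among the 26. By their names 19 are alpha-expansins, 3 beta-expansins, 3 expansin-like A genes and 1 an expansin-like B gene. The libraries were wild type Col-0 without NAA (mock), Col-0 on 500 nM of the synthetic auxin NAA, the arf7 T-DNA mutant without NAA and arf7 on 500 nM NAA. ARF7 belongs to the transcription factors that switch genes on in response to auxin, and the labels name neither the insertion line nor the number of seedlings pooled. The labels describe growth with NAA and give no separate duration for the treatment.

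Expansins are small secreted proteins that let the cellulose network of the wall slip under turgor, without cutting the polymers. They work best in an acidic wall, and the acid growth model of auxin action joins them to plasma membrane proton pumps. Wall loosening has been shown for alpha- and beta-expansins, whereas the expansin-like A and B proteins are related by sequence and their activity is not established.

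Depth was close among the libraries, at about 6997000 to 7407000 uniquely assigned reads. Each group was 1 library, so no difference has a replicate check. A size rule stood in for a test: the libraries had to differ 2-fold or more and the 95% counting interval of the ratio had to leave out 1. It was applied where the mean over the libraries reached 1 CPM (reads of the locus per 1000000 reads of its library), and folds were taken between TMM-scaled counts. Ranges in parentheses after a fold are those intervals, which cover counting error only and leave out any spread between plants. Where 4 read counts follow a gene, Col-0 comes before arf7, and within a genotype mock comes before NAA. Of the 26 expansins 20 passed the filter, and a locus could pass it through the library where it was high. The Col-0 NAA library was the odd one out across loci: its Spearman correlations with the other libraries were 0.903 to 0.926, and those among the others 0.973 to 0.980. ARF7 itself (AT5G20730) was listed with 8 reads in Col-0 mock and 8 with NAA, and in arf7 3 without and 1 with NAA, over at most 2.03% of its model, which is lower in arf7 in the direction of the labels but too few reads for a firm check.

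The summed RNA of the 26 expansins differed little between libraries beside its make-up. The totals and shares leave out EXPA3, which had 366 reads in Col-0 mock and 2189 with NAA, and in arf7 170 without and 311 with NAA. Expansin reads came to 1311 CPM of the library total in Col-0 mock (exact 95% interval 1286 to 1338) and 1490 with NAA (1462 to 1519). In arf7 they came to 1369 without (1342 to 1397) and 1394 with NAA (1367 to 1422). The Col-0 NAA total was the highest and its interval did not overlap the other 3. Corrected for length as RPKM (CPM of the library total, per kilobase of model), EXPA4 alone made up 52.3% of the summed level of the 26 in Col-0 mock and 12.3% with NAA, and in arf7 51.5% without and 42.6% with NAA. EXPA4, EXLA1 and EXPA15 led in Col-0 mock and in both arf7 libraries. In Col-0 NAA the leading members were EXPA8, EXPA11 and EXPA9, with 54.5% of the summed level together. It took 6 genes to reach 80% of the summed level in Col-0 NAA, against 4 in Col-0 mock and 3 in each arf7 library. Members with at least 10 reads numbered 17 in Col-0 mock and 22 with NAA, and in arf7 15 without and 19 with NAA.

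**Figure D1:**
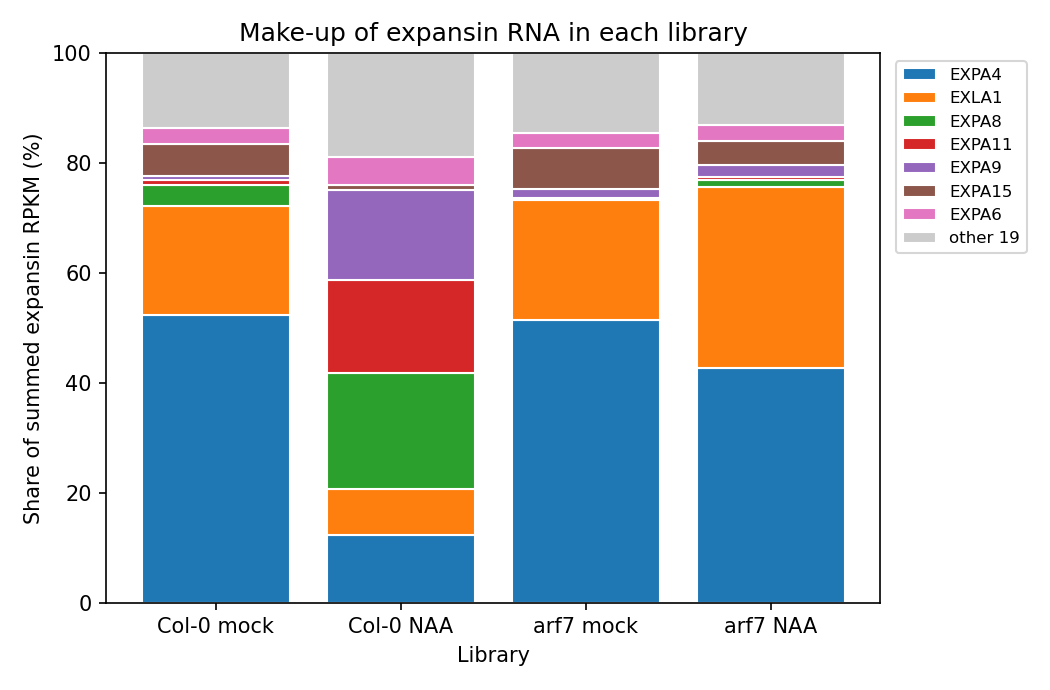
Share of the summed expansin RPKM (percent, vertical axis) taken by each gene in each library (horizontal axis); genes that reach 5% in any library are drawn separately and the remaining 19 are grouped. EXPA4 fills 52.3% of the Col-0 mock bar and 12.3% of the Col-0 NAA bar, where EXPA8, EXPA11 and EXPA9 take most of the space.

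Without NAA in Col-0, levels per length were spread widely below the leading gene. EXPA4 stood at 553 RPKM, EXLA1 at 210 RPKM and EXPA15 at 61.4 RPKM. EXPB3, EXPA8, EXPA13 and EXPA6 followed between 31.8 and 45.9 RPKM, and for EXPB3 that value rests on a small part of the model. The other 13 members that passed the filter lay at 14.1 RPKM or below, down to 0.135 RPKM for EXPA18. In arf7 mock the order at the top was the same, with 568 RPKM for EXPA4, 241 RPKM for EXLA1 and 82.1 RPKM for EXPA15, while EXPA8 stood at 2.33 RPKM.

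**Figure D2:**
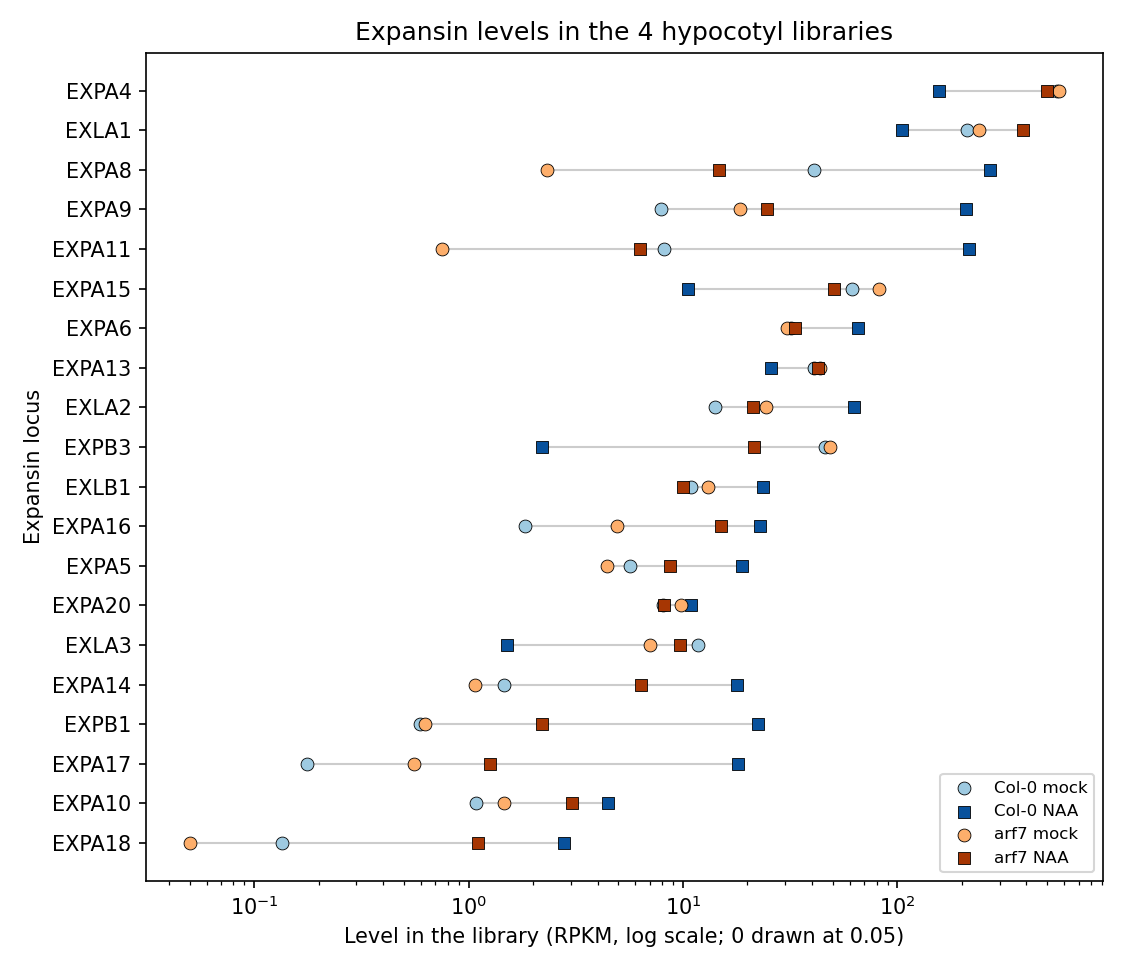
Level of each of the 20 expansins that passed the filter (RPKM, logarithmic horizontal axis, a value of 0 drawn at 0.05), with 1 point per library (circles mock, squares NAA, blue Col-0, orange and brown arf7). EXPA8 spans 2.33 RPKM in arf7 mock to 269 RPKM in Col-0 NAA, and EXPA13 and EXPA20 keep their 4 points close together.

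With NAA in Col-0, 13 of the 20 expansins compared were higher than in mock and 4 were lower. Over all 17317 loci compared, 15.1% were higher and 13.1% were lower, 28.2% in either direction against 85.0% of the expansins. The median log2 fold was 1.93 over the expansins and -0.01 over all loci. EXPA17 and EXPA18 had 3 or fewer reads in each mock library and passed the filter through their NAA reads. For them passing nearly fixes a call of higher in Col-0, so they are no independent part of these counts. A filter at a mean of 5 CPM leaves out both and EXPA10. With it 10 of 17 expansins were higher and 4 lower, against 25.7% of all loci in either direction. By class, 10 of 14 alpha-expansins were higher and 2 lower, 1 of 2 beta-expansins was higher and 1 lower, 1 of 3 expansin-like A genes was higher and 1 lower, and the expansin-like B gene was higher. EXPA13, EXPA20 and EXLA1 did not meet the rule. In tissue samples such as these, fewer cells of a type and less RNA per cell cannot be told apart.

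The most abundant of the 26 in the Col-0 NAA library were alpha-expansins that were minor members in mock, while EXPA3, outside the 26, had 2189 reads there, more than any of them. EXPA11 (AT1G20190, chromosome 1, 6998489 to 6999817, TAIR10) had 69 reads in Col-0 mock and 1759 with NAA, and in arf7 6 without and 52 with NAA. The Col-0 NAA library alone was high, and its fold over mock was 27.5 (21.6 to 35.6). EXPA9 (AT5G02260, chromosome 5, 463158 to 465246) had 73 reads in Col-0 mock and 1867 with NAA, and in arf7 162 without and 222 with NAA. Its fold in Col-0 was 27.6 (21.9 to 35.4), while the arf7 libraries lay close to each other. EXPA8 (AT2G40610, chromosome 2, 16948863 to 16950557) had 335 reads in Col-0 mock and 2134 with NAA, and in arf7 18 without and 117 with NAA. Each NAA library was above its own mock, and both arf7 libraries were below both Col-0 libraries. The fold of EXPA8 in Col-0 was 6.88 (6.13 to 7.74). In RPKM these genes reached 215 (EXPA11), 208 (EXPA9) and 269 (EXPA8) in Col-0 NAA, above the 157 RPKM of EXPA4 there.

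Genes tied to lateral root emergence were among the higher ones. EXPA14 and EXPA17 are known as targets of LBD18, a factor that acts downstream of ARF7 and ARF19 when lateral roots form. EXPA14 (AT5G56320) had 13 reads in Col-0 mock and 155 with NAA, and in arf7 9 without and 55 with NAA, a fold of 12.9 in Col-0 (7.31 to 24.7). EXPA17 (AT4G01630) had 1 read in Col-0 mock and 100 with NAA, and in arf7 3 without and 7 with NAA, a ratio of 108 in Col-0 whose interval runs from 18.9 to 4309. Both were highest in Col-0 NAA, and EXPA17 was near absent from the other libraries. LBD18 itself had 20 reads in Col-0 mock and 143 with NAA, and in arf7 12 without and 21 with NAA, 7.72-fold higher with NAA in Col-0 (4.82 to 13.0). LBD29 had 16, 297, 6 and 14 reads in that order, 20.1-fold higher (12.1 to 35.5). Of 5 compared members of a list of factors reported upstream of expansins, 3 were higher with NAA in Col-0 (LBD18, LBD29 and RHD6), against 15.1% of all loci, and 1 in arf7 (RHD6), against 3.91%. RHD6 passed the filter through its NAA reads. ARF19, a close relative of ARF7, ranged from 643 to 709 reads, and LBD16 from 80 to 229. Endodermal markers moved with these genes: the 6 Casparian strip genes, which belong to the root endodermis, summed to 399, 6172, 298 and 403 reads in that order, with 0 of 6 at 0 in any library. Of the 6, 5 were higher with NAA in Col-0 (median log2 4.57), against 15.1% of all loci. CASP5 had 4, 2126, 7 and 20 reads, CASP4 8, 227, 16 and 6, CASP2 39, 969, 32 and 61, and CASP1 105, 2083, 88 and 109. In arf7 CASP5 was higher with NAA and CASP4 lower (median of the 6 0.37). Their part in the expansin differences was not tested.

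Other alpha-expansins were higher by smaller folds or from lower levels. EXPA16 (AT3G55500) had 15 reads in Col-0 mock and 182 with NAA, and in arf7 38 without and 120 with NAA, a fold of 13.1 in Col-0 (7.74 to 23.9). EXPA10 (AT1G26770), an expansin of growing leaves and pedicels, had 11, 44, 14 and 30 reads in the same order, a fold of 4.32 (2.20 to 9.28). Both were higher in each NAA library than in its mock. EXPA5 (AT3G29030, chromosome 3, 11011308 to 11013358), known for a part in brassinosteroid-dependent growth, had 54, 175, 40 and 81 reads. Its fold in Col-0 was 3.50 (2.57 to 4.84), and both NAA libraries stood above both mock libraries. EXPA6 (AT2G28950) had 326, 654, 296 and 334 reads, a fold of 2.17 (1.89 to 2.48). For EXPA6 the Col-0 NAA library stood above 3 libraries that lay close together.

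EXPA7 and EXPA18 are known as the expansins of root hairs, where the bHLH factors RHD6 and RSL4 act upstream. EXPA18 (AT1G62980) had 1 read in Col-0 mock and 20 with NAA, and in arf7 0 without and 8 with NAA. The ratio in Col-0 was 21.6 (3.46 to 895), and arf7 NAA was at least 2.61-fold above arf7 mock when the 0 is set at 3 reads. EXPA7 (AT1G12560) had 0 reads in both mock libraries and 12 in both NAA libraries, and its mean was below the filter. Both genes were thus detected with NAA and at or near 0 without it, in either genotype. The sum of 10 root hair markers was also higher with NAA in each genotype. It was 44 reads in Col-0 mock and 2150 with NAA, and in arf7 33 without and 399 with NAA. In those libraries 3, 0, 5 and 1 of the 10 were at 0. All 7 that passed the filter were higher with NAA in Col-0 (median log2 5.67) and in arf7 (median 4.05), against 15.1% and 3.91% of all loci. LRX1, PRP1, COBL9, XTH14 and RHD6 had 3 or fewer reads in each mock library and passed the filter through their NAA reads. For such genes passing nearly fixes a call of higher in Col-0, so that share is no independent measure. With NAA 6 of the 7 were lower in arf7 than in Col-0, against 14.1%. EXPA7, with 12 reads in both NAA libraries, had a ratio of arf7 to Col-0 of 0.917 (0.377 to 2.23), too wide to show or exclude such a difference. EXPA18 was 2.73-fold lower in arf7 NAA than in Col-0 NAA (1.15 to 7.16). LRX2, a wall protein of root hairs, had 25, 1205, 22 and 50 reads, which is most of the Col-0 NAA sum, 52.1-fold higher with NAA in Col-0 (35.1 to 80.8) and 2.22-fold in arf7 (1.32 to 3.85). Its relative LRX1 had 3, 194, 2 and 88 reads, the wall proteins PRP1 0, 54, 0 and 21 and PRP3 9, 431, 5 and 157, XTH14 2, 200, 3 and 41, and COBL9 1, 26, 1 and 17. RHD6 had 2, 30, 0 and 8 reads. RSL4 (2, 6, 0 and 9 reads) and RSL2 (0, 3, 0 and 8) were below the filter, and both had more reads in arf7 NAA than in Col-0 NAA. The part of root hair cells in the EXPA7 and EXPA18 reads was not tested.

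The upstream sequence of these genes is shown because both hold the root hair element, a motif described from promoters of root hair genes, these among them. The windows are the 300 bases before the RefSeq gene start in TAIR10.1, forward strand, chr1:4276205-4276504 for EXPA7 and chr1:23331263-23331562 for EXPA18. Capitals mark the root hair element, which begins 78 bases before the start in EXPA7 and 40 bases before it in EXPA18, and in EXPA7 also the auxin response element TGTCTC, 21 bases before the start.
EXPA7: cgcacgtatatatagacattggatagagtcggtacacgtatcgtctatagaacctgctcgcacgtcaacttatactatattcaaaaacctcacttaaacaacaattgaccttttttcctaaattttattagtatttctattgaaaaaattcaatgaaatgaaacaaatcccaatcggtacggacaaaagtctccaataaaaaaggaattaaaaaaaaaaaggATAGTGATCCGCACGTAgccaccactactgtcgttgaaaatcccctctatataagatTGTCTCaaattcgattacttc
EXPA18: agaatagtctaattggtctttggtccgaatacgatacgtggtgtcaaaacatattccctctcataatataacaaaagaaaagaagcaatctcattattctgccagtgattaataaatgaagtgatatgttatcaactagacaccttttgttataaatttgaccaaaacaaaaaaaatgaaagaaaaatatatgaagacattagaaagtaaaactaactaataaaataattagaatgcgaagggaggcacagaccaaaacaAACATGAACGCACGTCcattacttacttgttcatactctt
Of all 27443 protein-coding promoters of this length, 0.915% held the root hair element on either strand. Among the 26 expansins EXPA7 and EXPA18 held it (7.69%). The motif was added to the search after the values had been seen, and both genes are among those it was defined on.

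Beta-expansins, the class best known from grass pollen, went in opposite directions. EXPB1 (AT2G20750) had 5 reads in Col-0 mock and 183 with NAA, and in arf7 5 without and 18 with NAA, a fold of 39.5 in Col-0 (16.6 to 123). EXPB3 (AT4G28250, chromosome 4, 14000038 to 14002069) had 451, 21, 450 and 205 reads in the same order, 19.9-fold lower with NAA in Col-0 (12.8 to 32.4). The mock libraries lay close to each other for both genes, and Col-0 NAA was the extreme library for both. EXPB3 was counted on at most 8.36% of a listed model and has 2 listed models.

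Expansin-like genes also split. EXLA2 (AT4G38400), whose loss is known to alter resistance to a fungal pathogen, had 115 reads in Col-0 mock and 500 with NAA, and in arf7 189 without and 169 with NAA, a fold of 4.70 in Col-0 (3.83 to 5.80). EXLB1 (AT4G17030) had 88, 186, 100 and 79 reads, a fold of 2.28 (1.76 to 2.98). In both, Col-0 NAA stood above 3 libraries that lay closer together. EXLA3 (AT3G45960) had 89, 11, 49 and 71 reads and was 7.49-fold lower in Col-0 NAA (3.99 to 15.5), counted on at most 16.8% of a model. EXLA1 (AT3G45970), the most abundant of the class, had 1541, 749, 1666 and 2744 reads. It was 1.90-fold lower with NAA in Col-0 (1.74 to 2.08), short of the 2-fold rule.

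The alpha-expansins that led the members in mock were lower with NAA in Col-0. EXPA4 (AT2G39700, chromosome 2, 16543832 to 16545584) had 5482 reads in Col-0 mock and 1503 with NAA, and in arf7 5315 without and 4782 with NAA, 3.38-fold lower in Col-0 (3.19 to 3.58). EXPA15 (AT2G03090, chromosome 2, 916854 to 918643) had 618, 103, 780 and 498 reads, 5.55-fold lower (4.50 to 6.91). In both genes Col-0 NAA was the single low library. Leaving EXPA4 out, the members summed to 571 CPM of the library total in Col-0 mock and 1281 with NAA, and in arf7 to 610 without and 730 with NAA.

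To show promoters of genes with opposite responses, 300 bases upstream of EXPA5 (chr3:11013452-11013751, higher with NAA) and EXPB3 (chr4:14002125-14002424, lower) are given 5′ to 3′ on the reverse strand of TAIR10.1, the strand of both genes. Capitals mark TGTCTC in EXPA5, 149 and 94 bases before the start, and the variant TGTCGG in EXPB3, 88 bases before it.
EXPA5: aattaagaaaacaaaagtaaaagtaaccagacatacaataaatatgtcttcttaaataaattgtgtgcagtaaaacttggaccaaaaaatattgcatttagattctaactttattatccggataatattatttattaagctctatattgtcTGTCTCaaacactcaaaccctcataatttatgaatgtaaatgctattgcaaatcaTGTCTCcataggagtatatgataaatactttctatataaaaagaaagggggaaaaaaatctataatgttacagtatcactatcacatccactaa
EXPB3: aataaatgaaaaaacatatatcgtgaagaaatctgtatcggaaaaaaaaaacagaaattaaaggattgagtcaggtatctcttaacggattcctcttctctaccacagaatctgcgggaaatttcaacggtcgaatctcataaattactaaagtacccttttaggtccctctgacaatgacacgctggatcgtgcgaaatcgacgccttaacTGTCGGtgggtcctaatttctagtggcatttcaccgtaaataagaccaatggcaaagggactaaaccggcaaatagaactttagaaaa
These 6 letters are core forms of the auxin response element, to which auxin response factors bind. TGTCTC was found on either strand in the windows of 4 of 26 expansins (15.4%), namely EXPA5, EXPA6, EXPA7 and EXPA10, and in 13.0% of all 27443 promoters. TGTCGG was found in 3 (11.5%), EXPA12, EXLA3 and EXPB3, against 4.91% of all. The windows shown are thus among the 7 of 26 (26.9%) with either form, against 17.3% of all. EXPA4 and EXPA15, lower with NAA in Col-0, and EXPA8, EXPA9 and EXPA11, higher, held neither form in 300 bases. In windows of 1000 bases, 13 of 26 expansins (50.0%) and 48.3% of all promoters held either form. The G-box letters CACGTG were in 2 expansin windows of 300 bases, those of EXPB2 and EXPA2 (7.69%), against 7.09% of all. A match is a description of the letters and not a shown binding site.

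In arf7, NAA was associated with fewer and smaller differences. Of the 20 expansins 7 were higher with NAA and 1 was lower, against 3.91% and 4.33% of all loci (8 of 20 against 8.23% in either direction). The median log2 fold was 0.59 over the expansins and 0.00 over all loci. The 7 higher ones, EXPA8, EXPA10, EXPA11, EXPA14, EXPA16, EXPA18 and EXPB1, were 7 of the 13 higher in Col-0 (53.8%) and all of those higher in arf7. The corresponding shares over all loci were 15.3% and 59.4%. EXPB3, lower in arf7, was also lower in Col-0. EXPA18, with 0 reads in arf7 mock, passed the filter through its NAA reads. The folds in arf7 were 8.47 for EXPA11 (3.64 to 24.1), 6.35 for EXPA8 (3.85 to 11.1), 5.97 for EXPA14 (2.93 to 13.7) and 3.09 for EXPA16 (2.13 to 4.57). EXPB1 was 3.52-fold higher (1.26 to 12.1) and EXPA10 2.09-fold (1.08 to 4.27), both with wide intervals. EXPB3 was 2.25-fold lower (1.90 to 2.66).

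The difference between the genotypes' NAA responses was taken as the arf7 log2 fold minus the Col-0 log2 fold, and was called where it was at least 1 in size, its counting interval excluded 0 and the NAA fold met the size rule in at least 1 genotype. It counted as weaker in arf7 where it ran against the called direction in Col-0, and as stronger where it ran with the called direction in arf7, so that a locus called in opposite directions counted as both. A weaker response in arf7 was called for 11 of 20 expansins, against 18.8% of all loci, and a stronger one for 0 of 20, against 2.44%. A weaker response could be called only where Col-0 met the rule, as 85.0% of the expansins and 28.2% of all loci did. The 11 of 20 is therefore not a measure of dependence on ARF7 particular to expansins. A difference of any kind was called for 11 of 20, against 20.4% of all loci. Of the 13 expansins higher with NAA in Col-0, 7 had a weaker response in arf7 (53.8%). The same share over all loci higher in Col-0 was 67.3%, or 1764 of 2623. The fold of EXPA9 was 1.34 in arf7 (1.09 to 1.65), a difference of -4.36 (-4.80 to -3.91), 20.5 times smaller than in Col-0. EXLA2 (0.87-fold, 0.706 to 1.08) and EXLB1 (0.77-fold, 0.567 to 1.05) had no response beyond counting error in arf7, with differences of -2.42 (-2.84 to -2.00) and -1.56 (-2.12 to -0.999). EXPA11, EXPA16 and EXPB1 met the rule in arf7 with smaller folds, with differences of -1.79, -2.06 and -3.45. EXPA17 had 3 reads in arf7 mock and 7 in arf7 NAA, a difference of -5.11 (-8.07 to -2.15). It is among the 11 and passed the filter through its Col-0 NAA reads.

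The 4 genes lower in Col-0 responded less in arf7 as well. So did most loci: of 2268 lower with NAA in Col-0, 2193 had a smaller or opposite log2 response in arf7. EXPA4 was 1.14-fold lower with NAA in arf7 (1.09 to 1.18), a difference of 1.57 (1.47 to 1.67). EXPA15 was 1.60-fold lower (1.43 to 1.80), a difference of 1.79 (1.45 to 2.13). The difference was 3.12 for EXPB3 (2.45 to 3.78) and 3.35 for EXLA3 (2.32 to 4.37). EXLA1 was 1.61-fold higher with NAA in arf7 (1.51 to 1.71), opposite to its direction in Col-0. It met the 2-fold rule in neither genotype and so was outside the call, but its difference of 1.62 (1.46 to 1.77) was as large as that of EXPA4.

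For EXPA8 the NAA folds of the genotypes differed by less than their counting error. The fold of 6.35 in arf7 against 6.88 in Col-0 gave a difference of -0.15 (-0.87 to 0.58). For EXPA14, EXPA10 and EXPA18 the differences of -1.12 (-2.40 to 0.15), -1.02 (-2.32 to 0.28) and 0.17 (-4.59 to 4.93) had intervals that include 0. EXPA5 and EXPA6 differed by less than 1, at -0.82 (-1.52 to -0.12) and -0.97 (-1.27 to -0.68).

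**Figure D3:**
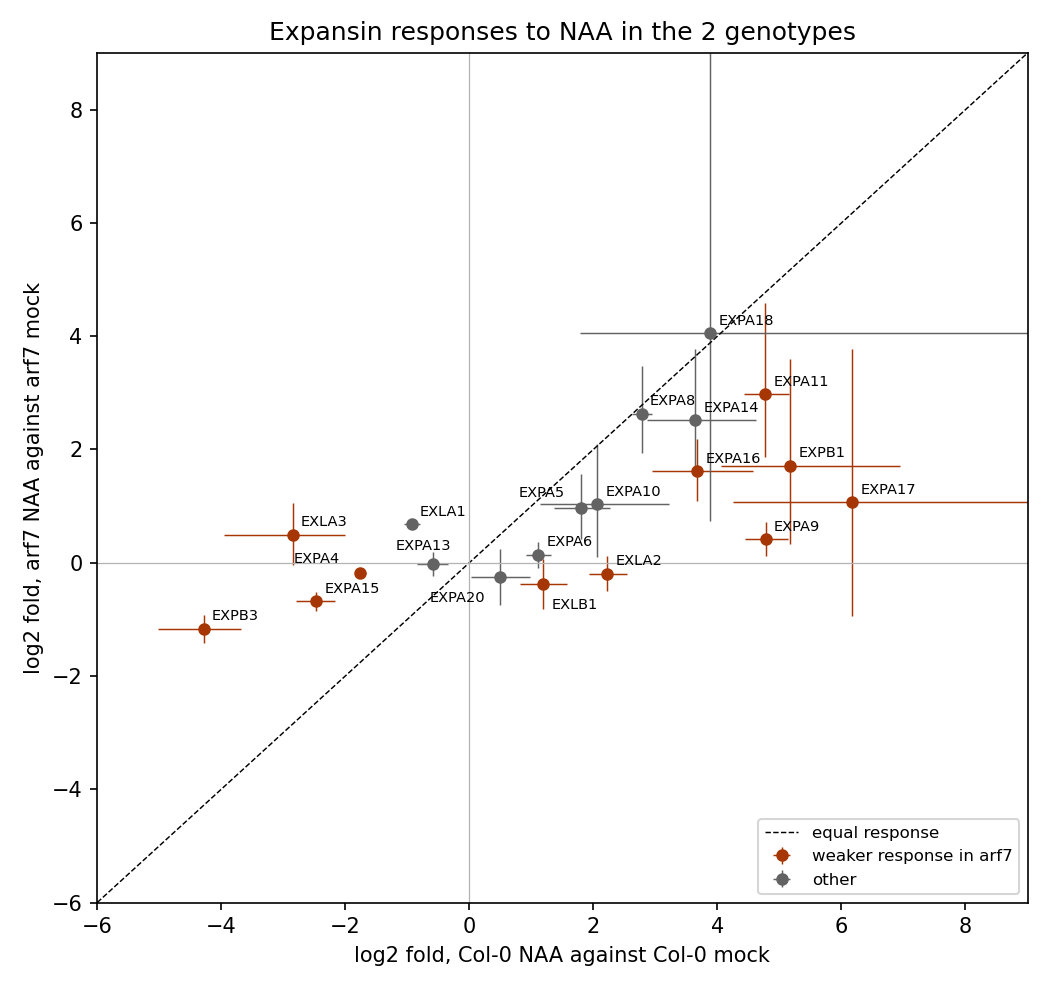
Log2 fold with NAA in Col-0 (horizontal axis) and in arf7 (vertical axis) for the 20 expansins compared, with 95% counting intervals as bars, some cropped at the frame; the dashed line marks equal responses and brown points the 11 weaker in arf7. EXPA8 lies close to the line, at 2.78 and 2.63, and EXPA9 far below it at 4.78 and 0.42.

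Without NAA, the genotypes differed in fewer expansins than with it, but in a larger share of expansins than of all loci. In arf7 mock against Col-0 mock 2 of 20 were higher and 2 were lower, against 2.33% and 2.3% of all loci (4 of 20 against 4.63% in either direction), and the median log2 fold was 0.03 over the expansins and 0.01 over all loci. EXPA8 was 18.4-fold lower in arf7 (11.4 to 31.4) and EXPA11 11.3-fold lower (4.96 to 32.0). EXPA9 was 2.25-fold higher in arf7 (1.70 to 3.01) and EXPA16 2.57-fold higher (1.38 to 5.02). EXPA4, EXPA6, EXPA13, EXLA1 and EXPB3 were within 1.1-fold of Col-0. EXPA8 reads covered 94.0% of its model in Col-0 mock and 44.9% in arf7 mock, and EXPA11 reads 74.9% and 21.4%.

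EXPA8 and EXPA11 are the members lower in arf7 both with and without NAA, and their upstream windows are shown for that reason. They are chr2:16950706-16951005 for EXPA8 and chr1:6999840-7000139 for EXPA11, reverse strand of TAIR10.1, 5′ to 3′. Neither holds any of the 4 motifs searched on either strand, so neither has capitals. In 1000 bases EXPA8 has 1 TGTCGG, 779 bases before the start on the other strand, and EXPA11 has none of them.
EXPA8: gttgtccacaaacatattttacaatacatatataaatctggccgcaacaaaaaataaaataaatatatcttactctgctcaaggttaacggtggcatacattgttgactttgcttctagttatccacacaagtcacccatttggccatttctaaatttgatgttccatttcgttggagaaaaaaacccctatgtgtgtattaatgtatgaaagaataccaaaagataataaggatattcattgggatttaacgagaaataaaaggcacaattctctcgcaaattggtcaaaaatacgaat
EXPA11: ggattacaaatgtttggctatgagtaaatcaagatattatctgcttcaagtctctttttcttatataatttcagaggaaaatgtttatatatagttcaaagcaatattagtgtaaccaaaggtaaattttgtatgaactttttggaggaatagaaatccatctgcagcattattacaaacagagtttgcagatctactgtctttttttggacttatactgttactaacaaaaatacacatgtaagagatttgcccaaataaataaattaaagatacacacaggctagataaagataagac

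With NAA in both genotypes, 11 of 20 expansins were lower in arf7 than in Col-0 and 5 were higher, against 14.1% and 10.8% of all loci (16 of 20 against 24.9% in either direction). The median log2 fold was -1.16 over the expansins and 0.01 over all loci. This comparison shares the Col-0 NAA library with the NAA comparison in Col-0, so the calls in both are not independent. The largest folds were those of EXPA11, 36.9-fold lower (28.0 to 49.6), EXPA8, 19.9-fold lower (16.5 to 24.2), and EXPA17, 15.6-fold lower (7.29 to 39.8). EXPB1 was 11.1-fold lower (6.82 to 19.1) and EXPA9 9.18-fold lower (7.98 to 10.6). EXLA2, EXPA14, EXPA18, EXLB1, EXPA5 and EXPA6 were lower by 3.23-fold down to 2.14-fold, and EXPA6 no longer met the rule when scaled by library totals (log2 -0.97). The higher ones were EXPB3 at 8.95-fold (5.70 to 14.8), EXLA3 at 5.92-fold (3.11 to 12.4), EXPA15 at 4.43-fold (3.58 to 5.53), EXLA1 at 3.36-fold (3.10 to 3.65) and EXPA4 at 2.92-fold (2.75 to 3.09). For EXPA8 arf7 was 18.4-fold lower without NAA and 19.9-fold lower with it. For EXPA9 and EXPA16 the direction of the arf7 difference turned, from 2.25-fold higher to 9.18-fold lower and from 2.57-fold higher to 1.65-fold lower (1.31 to 2.10), the last short of the rule.

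**Figure D4:**
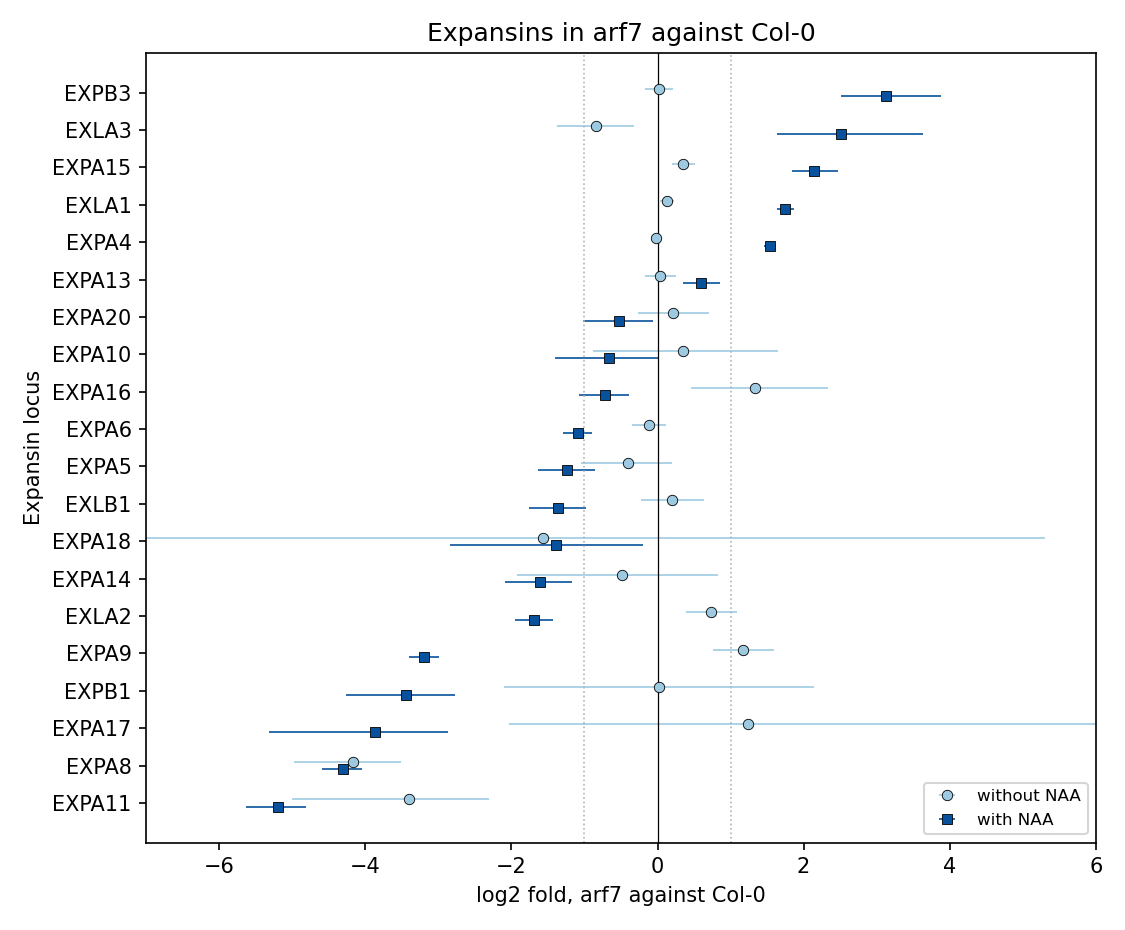
Log2 fold of arf7 against Col-0 (horizontal axis) for the 20 expansins compared, without NAA (light circles) and with NAA (dark squares), with 95% counting intervals as bars, some cropped at the frame, and dotted lines at the 2-fold rule. EXPA8 is low by a similar amount in both (-4.16 and -4.31), while for most other genes the circles lie near 0 and the squares away from it.

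A model with additive effects of genotype and NAA leaves 1 residual degree of freedom, and it takes a difference in response as error. With edgeR's quasi-likelihood test and Benjamini-Hochberg adjustment, 0 of 20 expansins passed an adjusted p of 0.05 for NAA, and 0.0% of all loci did. At an unadjusted p under 0.05 there were 11 of 20 expansins and 1400 of all loci (8.08%). For genotype 0 of 20 passed, again with 0.0% of all loci, and at an unadjusted p under 0.05 there were 2 of 20 expansins and 578 loci (3.34%). DESeq2 called 6 expansins for NAA and 2 for genotype, and limma voom 0 for each. The share of all loci called by DESeq2 was not taken, so its counts show nothing particular to expansins. The genotype pair was EXPA8 and EXPA11 by unadjusted p in edgeR: EXPA8 had an adjusted p of 0.34 for NAA and 0.513 for genotype, with log2 effects of 2.73 and -4.26. EXPA11 had an adjusted p of 0.411 and 0.608, with log2 effects of 4.18 and -4.58.

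The 2 compared members outside every call kept a narrow range. EXPA13 (AT3G03220) had 354 reads in Col-0 mock and 218 with NAA, and in arf7 359 without and 361 with NAA, and EXPA20 (AT4G38210) had 68, 89, 78 and 67. EXPA20 shares 1061 bases with an RNA gene on the opposite strand, and nothing in the labels states a strand-specific count. Of the 6 members below the filter, EXPA7 is described above and EXPA2, known from germinating seeds, had 12 reads in Col-0 NAA and 1 in arf7 NAA, with 0 in both mock libraries. EXPA1, EXPA12, EXPA21 and EXPB2 had fewer than 10 reads in every library. EXPA1 has 3 listed models and its reads covered at most 5.32% of any. Over all loci, models of loci with 1 listed model had a median of 70.4% covered, and those of loci with several 4.38%, and EXPA1, EXPB3 and EXLA3 are of the latter kind.

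Of 2 lists of partners of expansins in acid growth, counts are set beside all loci, of which 28.2% met the rule with NAA in Col-0 and 8.23% in arf7. The AHA genes encode the plasma membrane proton pumps, and 8 of 11 passed the filter. With NAA in Col-0 3 of 8 were higher, against 15.1% of all loci, and 0 lower (median log2 0.75), and in arf7 0 of 8 met the rule (median 0.21). AHA2 had 230 reads in Col-0 mock and 2549 with NAA, and in arf7 262 without and 351 with NAA, 12.0-fold higher in Col-0 (10.5 to 13.8). AHA4 (26, 93, 44 and 32 reads) and AHA5 (79, 152, 96 and 135) were higher by 3.86-fold and 2.08-fold. The D-clade PP2C phosphatases, which dephosphorylate the pumps and lower their activity, split in Col-0, with 3 of 8 higher and 1 lower (median 0.58), against 15.1% and 13.1% of all loci, and 1 of 8 was higher in arf7 (median 0.44), against 3.91%. With so few members in either list, 1 called gene more or less moves these shares widely. AT5G02760 had 62, 594, 27 and 41 reads, AT5G66080 77, 491, 90 and 113, AT3G12620 10, 23, 20 and 18, and AT4G33920 1603, 685, 1274 and 1635. AT3G51370, the one higher in arf7, had 117, 137, 64 and 147. Col-0 NAA was the highest or lowest library for each AHA and PP2C gene called in Col-0, and it also stood apart over all loci.

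Among markers of other tissues, the 6 seed storage genes summed to between 11 and 56 reads in a library and the 3 shoot meristem genes to between 31 and 68, highest in Col-0 NAA in each case. Those called with NAA were OLEO1 (2, 26, 1 and 2 reads), OLEO2 (2, 22, 0 and 8), SESA1 (7, 6, 25 and 6) and STM (33, 67, 31 and 47). The leaf photosynthesis pair did not move together. RBCS1A had 3322, 3500, 4140 and 4175 reads and met the rule in no comparison. LHCB1.1 had 2688, 326, 50 and 20 reads, 53.1-fold lower in arf7 than in Col-0 without NAA (40.1 to 71.7) and 17.8-fold lower with it (11.3 to 29.5). It was thus lower in arf7 with and without NAA, like EXPA8 and EXPA11, and its part in those differences was not tested. It has near-identical copies, so its counts are uncertain. The authors' deposited tables, made from the same libraries, list models past their own threshold. Expansin models there were higher and lower, respectively, in 15 and 5 cases with NAA in Col-0 and 4 and 1 with NAA in arf7. In arf7 against Col-0 they were 1 and 2 in mock, and 6 and 9 with NAA. EXLA3 enters both comparisons with the Col-0 NAA library as 2 models. The share of all models listed was not taken, so these counts show nothing particular to expansins.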

How the data were processed

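RNA of 4 libraries was sequenced, 1 per genotype and treatment. The authors deposited, per the file headers, for each transcript model the count of reads assigned to it uniquely, the percent of the model covered and an RPKM value, with models of 0 reads left out. Per the submitters' processing notes, TAIR10 was the build. Which aligner and counter were used is not given in the sources used here. In addition, the authors' deposited comparison tables hold a log2 ratio of RPKM and a p-value with an FDR, by a test not given in the sources used here, and 16 columns of per-sample values in them were not used.

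Counts were summed per locus. TMM scaling (edgeR 4.0.16, R 4.3.3) gave factors of 0.991 and 0.947 for Col-0 without and with NAA and of 1.04 and 1.03 for arf7. Intervals of ratios are exact conditional binomial (Clopper-Pearson, SciPy 1.17.1), those of response differences are Wald intervals, and log2 folds add 0.5 to each count. A count of 0 was set at 3 counts for a bound. DESeq2 1.42.0 and limma 3.58.1 were alternatives, and scripts were tested on simulated data. Named are all members that met the size rule, the other members that passed the filter by range, and list genes that met it in an NAA comparison, at most 6 a list by size of fold, with RHD6 named among the upstream factors. The values of 1 list gene are not reported here. ARF19, LBD16, RBCS1A, RSL2 and RSL4 were named after their values were seen. Members and lists were chosen with earlier results of these data known. Promoters were read from the RefSeq genome TAIR10.1: 23505 loci matched by name and 99.974% overlapped their deposited span on the same strand. Of 40-base exon words of each expansin, none was found elsewhere in the genome except 3.18% in EXLA3 and 2.33% in EXLA1.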

Additional observations from a re-analysis of the deposited data

Results flagged for a closer look

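EXLA1 (AT3G45970), an expansin-like A gene, moved in opposite directions with NAA in the genotypes. It had 1541 reads in Col-0 mock and 749 in Col-0 NAA, 1.90-fold lower (1.74 to 2.08), and 1666 reads in arf7 mock and 2744 in arf7 NAA, 1.61-fold higher (1.51 to 1.71). The log2 NAA response in arf7 minus that in Col-0 was 1.615 (95% counting interval 1.46 to 1.77). With 1 library in each group the difference was not tested.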

How the results depend on the processing

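Counts of expansins were computed under other scalings, filters, fold thresholds and counting units, and 48 of 50 such counts stayed within 1.5 times the reported count. The exceptions were the additive fits with DESeq2, which called 6 expansins for NAA (5 higher and 1 lower) and 2 for genotype (both lower). With edgeR and limma voom there were 0, and the cause was not tested. No share of all loci was taken for the DESeq2 counts. Of 152 log2 folds of single expansins under another setting, 148 stayed within the counting interval, 4 lay outside it and 0 of the called ones changed sign. Scaling by library totals moved the median of all loci in arf7 NAA against Col-0 NAA to 0.13 on the log2 scale, and there 5 expansins were higher and 10 lower, EXPA6 no longer among them. Requiring reads over at least 20% of a model, chosen after seeing the data, left 18 expansins. Of these 15 were called with NAA in Col-0 and 7 in arf7, and 9 had different responses. This limit was applied to the expansins only, so no share of all loci matches these counts. No paired analysis was possible because each group has 1 library and the labels carry no replicate numbers, and for the same reason no library could be left out. Depth limits EXPA17, EXPA18 and EXPB1, whose mock counts were 5 or fewer.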

Other observations

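The reference names 38 genes as expansins, of which 26 had the word in their deposited description, 3 were listed under another description and 9 had no model listed in any library. Of the 3, EXP3 (AT2G37640, the alpha-expansin EXPA3) was well measured, with 366 reads in Col-0 mock and 2189 with NAA, and in arf7 170 without and 311 with NAA. It was 6.46-fold higher with NAA in Col-0 (5.78 to 7.24) and 1.79-fold higher in arf7 (1.48 to 2.17). Without NAA it was 2.12-fold lower in arf7 (1.77 to 2.56), and with NAA 7.68-fold lower (6.82 to 8.68). The difference in log2 response was -1.85 (-2.17 to -1.54). PNP-A and AT4G30380 had at most 3 reads in any library.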
